A study of Mus musculus with 8 samples.

Results

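The potassium channel genes of the mouse were examined in amygdalar intercalated cells, small clusters of GABAergic neurons that lie around the basolateral amygdala. A gene was taken as a member when its symbol in the deposited count matrix began with Kcn, went on with further letters and ended in digits. This rule took 92 of the 32543 rows of that matrix, counting pore-forming and auxiliary subunits alike, and 58 of the 92 had enough counts to be tested. It used the symbol alone and no measured value, though it was chosen with earlier results of these data known.

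RNA came from cells sorted for green fluorescent protein (GFP) out of the amygdala of embryos at E16.5, kept on an outbred background. Controls were Tshz1GFP/+ embryos, with the GFP allele and a normal copy of Tshz1, and knockouts were Tshz1GFP/RA embryos, with the GFP allele and the RA allele. The labels do not explain RA. Both genotypes therefore carry one GFP allele at Tshz1, a zinc finger transcription factor gene, and no embryo with a pair of normal copies was compared. Each library was made from tissue of several embryos of 1 genotype, and there were 4 libraries a genotype, whose titles begin with NX, NY, QT or RM. A control and a knockout library share each prefix, whose meaning the labels do not give. The design text speaks of triplicates, and all 8 libraries were used. P-values measure the spread between these pools, since the labels do not say that they come from separate litters.

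Potassium channels let potassium flow across the membrane, which in most neurons draws the voltage back towards rest. Voltage-gated (Kv) channels shape and space action potentials, KCNQ and EAG-type channels hold back excitability near threshold, calcium-activated channels set the pause after a spike, and inward rectifiers and two-pore-domain channels carry much of the current at rest. Auxiliary subunits alter how the pore-forming subunits gate and reach the membrane. In mature intercalated neurons, a slowly deinactivating potassium current is known to make responses depend on recent firing.

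The labels were first checked against Tshz1 and against markers. Tshz1 stood at 492 (NX), 240 (NY), 457 (QT) and 337 (RM) CPM in the controls, where CPM is a count scaled for the depth of its library, and at 121, 61.6, 78.1 and 55.9 CPM in the knockouts. It was the one intercalated cell marker that passed the test (log2 fold change -2.27, SE 0.30, adjusted p = 0.0388 by edgeR quasi-likelihood with Benjamini-Hochberg adjustment). That adjusted p in edgeR was 0.0657 to 0.183 without control NX, QT or RM or knockout NY, QT or RM, each left out singly. All 10 of 10 intercalated cell markers were detected, and their summed level ran from 1310 to 2751 TPM (transcript counts scaled to gene length and library) in the controls and from 869 to 1916 TPM in the knockouts. All 10, Tshz1 among them, were fitted lower in the knockout, with a median log2 fold change of -0.37. Pax6 (-0.04), Gad1 (-0.05) and Gad2 (-0.12) lay close to no change. In CPM, Pax6, Gad1 and Oprm1 were higher in the knockout in 2 of 4 prefixes. Libraries held 5785549 to 14535810 expected counts, and the detection floor of 3 counts came to 0.186 to 0.545 CPM. Floors cover counting error only.

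Across the 92 members, transcript was concentrated in a few genes. Levels of different genes are compared in TPM alone, since it allows for gene length. By the mean over 8 libraries, 12 members stood at 10 TPM or more, 38 at 1 to under 10 TPM, 33 above 0 but under 1 TPM, and 9 at 0. The top 5 members made up 43.3% of the summed mean level of 443 TPM, the top 10 made up 61.0% and the top 20 made up 80.6%.

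Among the abundant members were Kcnd3 (34.6 TPM), Kcnmb4 (29.1 TPM), Kcnd2 (27.7 TPM), Kcnk10 (25.8 TPM) and Kcnc1 (19.1 TPM). They encode, in this order, a Kv4 pore subunit, a subunit that modifies the large-conductance calcium-activated channel, another Kv4 pore subunit, a two-pore-domain channel and a Kv3 pore subunit. The first of these did not separate from each other: over single libraries Kcnd3 ran from 20.3 to 61.3 TPM, Kcnmb4 from 12.5 to 60.3 TPM and Kcnd2 from 8.49 to 57.3 TPM. Kcnk10 had the narrowest range of these genes, between 21.1 and 35.3 TPM.

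**Figure D1:**
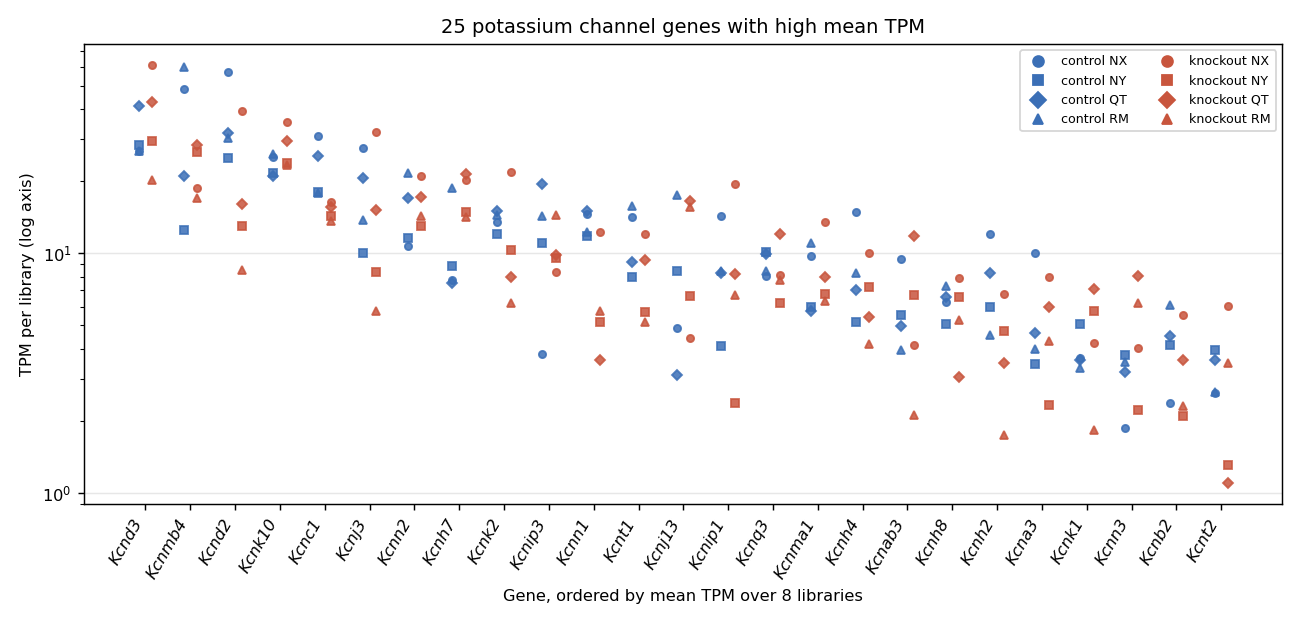
Each column is one of 25 potassium channel genes with high mean TPM, in falling order, and each point is the TPM of 1 library on a log axis (blue control, red knockout, symbols for the title prefix). The libraries of Kcnd3, Kcnmb4 and Kcnd2 span overlapping ranges, and a few members are not shown.

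No member passed the test between genotypes. Of 58 tested, 0 were called at an adjusted p under 0.05 in edgeR (quasi-likelihood, Benjamini-Hochberg adjusted), against 5 of all 14157 genes tested (0.0353%). DESeq2 called 0 members and 39 of 14144 genes (0.276%), and limma-voom called 0 members and 2 genes (0.0141%). In edgeR the Benjamini-Hochberg adjusted p was 1.00 for every tested member.

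At an unadjusted p under 0.05, 5 members were lower in the knockout, which is 8.62% of those tested, against 1.91% of all genes. These were Kcnd2, Kcnn1, Kcnc1, Kcnh2 and Kcnj12. At the same threshold 0 members were higher, against 1.7% of all genes. The count of 5 became 2 without control NX and 3 without knockout NY or without knockout QT. It was also 2 when log2 TPM was tested with limma in place of counts, with either pseudocount. In such bulk libraries, fewer cells of a type and less RNA per cell cannot be told apart.

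The control and knockout CPM ranges did not overlap for 3 tested members, Kcnn1, Kcnh2 and Kcnj9, all lower in the knockout. That is 5.17% of the tested members, against 2.59% of all genes. In CPM the knockout was the lower library in each of the 4 prefixes for 8 tested members (13.8%, against 8.49% of all genes) and the higher in each for 2 (3.45%, against 8.32%). Over the 58 members, 24 were fitted higher and 34 lower, and the median log2 fold change was -0.14 (range -1.73 to 1.06). Over all tested genes the median was -0.01 and 49.4% were fitted higher. Without control RM the median of the members was 0.06, on the other side of 0. Within the prefixes, the median difference over the members between knockout and control was 0.08 (NX), -0.33 (NY), -0.01 (QT) and -0.22 (RM) in log2 CPM, lowest in NY and RM.

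The summed level of all members was 547, 368, 458 and 529 TPM in control NX, NY, QT and RM, and 562, 342, 419 and 320 TPM in the matching knockouts. The genotypes overlapped, and in NX the knockout was the higher. As a share of all expected counts, members made up 0.112% ± 0.0179 in the controls and 0.0943% ± 0.0170 in the knockouts (SD, n = 4 each).

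**Figure D2:**
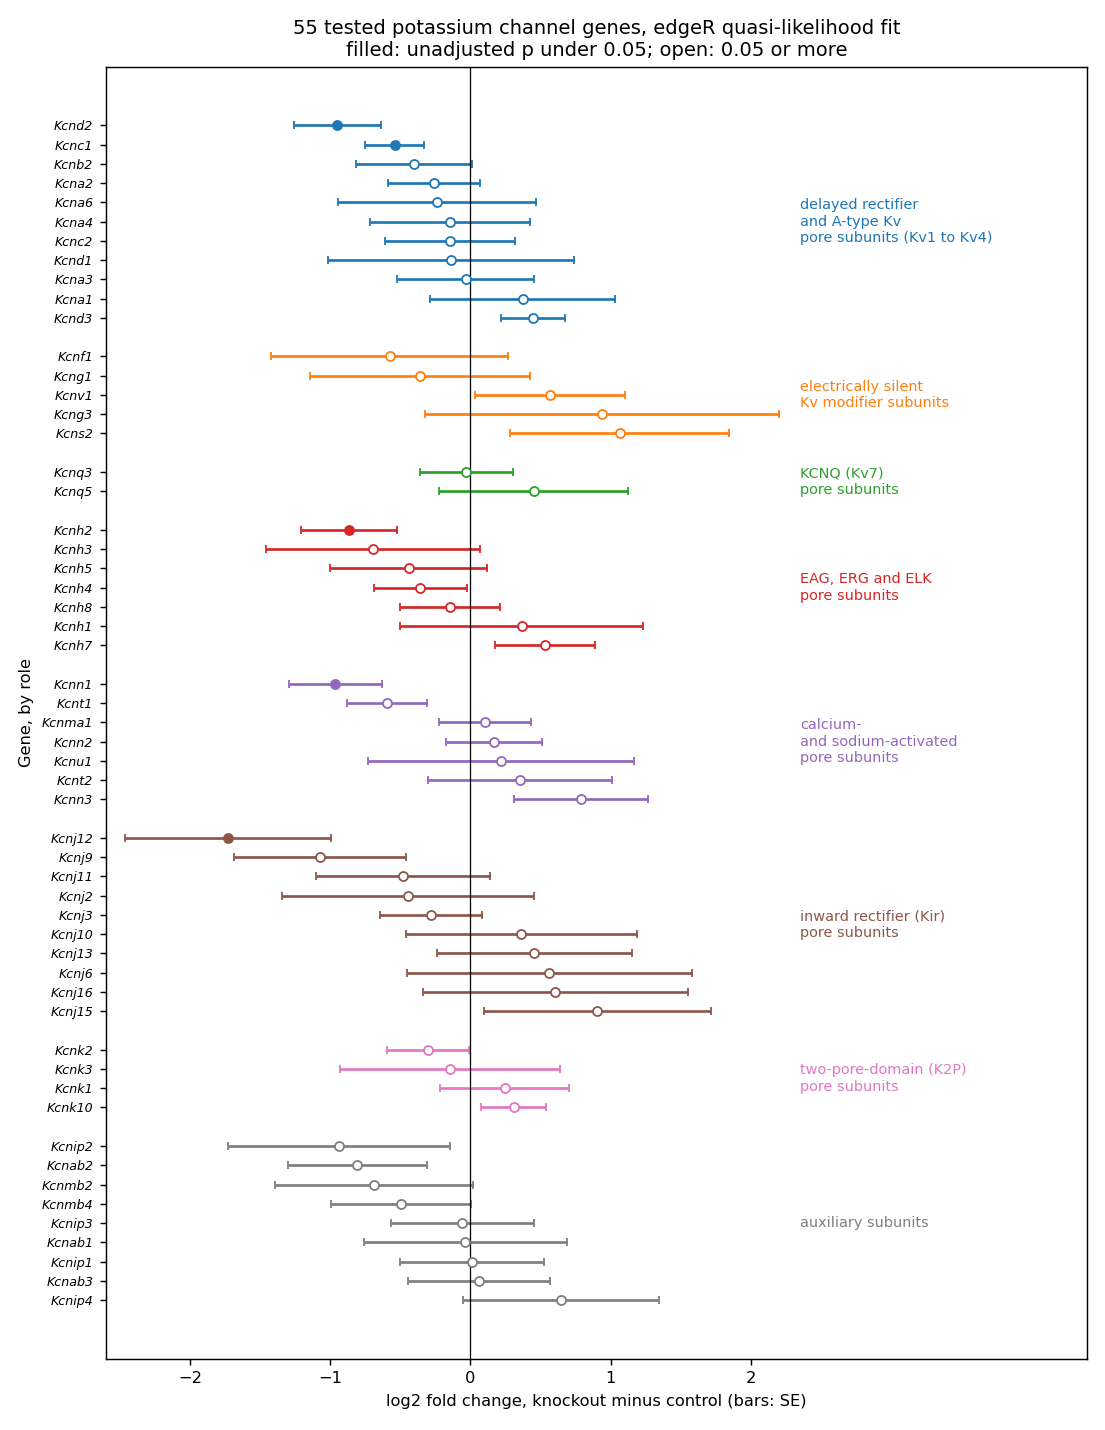
Points are log2 fold changes (knockout minus control) of 55 of the 58 tested members with bars of 1 SE, grouped by role and ordered within each role. Filled points mark an unadjusted p under 0.05 and are the 5 members lower in the knockout, from -0.54 (Kcnc1) to -1.73 (Kcnj12), and no filled point lies above 0.

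Among the 17 pore subunits of the Kv1 to Kv4 families, which open on depolarisation and end or delay the spike, 13 were tested and 10 of these were fitted lower. Kcnd2 and Kcnd3 encode the main A-type pore subunits, whose current turns on below threshold and inactivates fast. Kcnd2 stood at 117, 63.4, 72.2 and 88.7 CPM in control NX, NY, QT and RM, and at 75.6, 31.6, 36.5 and 32.5 CPM in the knockouts. It was lower in the knockout within each prefix in CPM and in TPM, and the ranges overlapped only because knockout NX lay above control NY and QT. The means were 85.3 ± 23.7 and 44.1 ± 21.2 CPM (SD, n = 4), a fitted log2 fold change of -0.95 (SE 0.31, unadjusted p = 0.00982, edgeR's quasi-likelihood test).

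Kcnd3 was fitted in the opposite direction. It stood at 70.4, 91.9, 108 and 100.3 CPM in the controls and at 172, 94.2, 131 and 107 CPM in the knockouts. In CPM the knockout was the higher library in each prefix, by little in NY and RM, while in TPM it was the lower in RM, at 20.3 TPM against 26.7 TPM, and the genotypes overlapped. Exons of Kcnd3os lie on the other strand over part of Kcnd3. The fitted log2 fold change was 0.45 (SE 0.23, unadjusted p = 0.0763, edgeR's quasi-likelihood test). It was 0.26 without knockout NX, 0.15 without both NX libraries and 0.22 on log2 TPM plus 1.

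The ratio of Kcnd2 to Kcnd3 in TPM, a description chosen after the values were seen and given with no test, was 2.13, 0.883, 0.774 and 1.14 in control NX, NY, QT and RM. It was 0.644, 0.438, 0.376 and 0.417 in the knockouts. Every knockout ratio lay under every control ratio, although the difference from control QT to knockout NX was small beside the spread of the controls (1.23 ± 0.62, SD, n = 4).

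The bases before the annotated start are shown because Kcnd2 and Kcnd3 were fitted in opposite directions, with Kcnc1 added as the other member of these families lower at an unadjusted p under 0.05. The 150 bases upstream of the RefSeq start (GRCm38.p6) lie at chr6:21215196-21215345 on the plus strand for Kcnd2, at chr3:105451740-105451889 on the plus strand for Kcnd3 and at chr7:46396318-46396467 on the plus strand for Kcnc1. Capitals mark a GC box, the letters GGGCGG or, on the other strand, CCGCCC.
Kcnd2: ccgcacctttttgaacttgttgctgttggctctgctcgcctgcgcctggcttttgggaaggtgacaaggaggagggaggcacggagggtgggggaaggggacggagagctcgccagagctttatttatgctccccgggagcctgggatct
Kcnd3: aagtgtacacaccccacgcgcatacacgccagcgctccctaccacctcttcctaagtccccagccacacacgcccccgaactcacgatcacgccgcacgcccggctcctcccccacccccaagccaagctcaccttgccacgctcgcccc
Kcnc1: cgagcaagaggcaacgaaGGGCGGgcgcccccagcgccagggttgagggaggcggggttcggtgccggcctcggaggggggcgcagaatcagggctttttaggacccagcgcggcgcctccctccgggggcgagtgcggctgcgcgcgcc
Kcnd2 and Kcnd3 had 0 GC boxes in this window and Kcnc1 had 1. Of 32851 windows of this length in the RefSeq table, 28.6% held at least 1, and of 92 windows that belong to 67 of the members, 40.2% did. CG pairs numbered 7 in Kcnd2, 13 in Kcnd3 and 19 in Kcnc1, against a median of 4 over all windows.

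Kcnc1 encodes a Kv3 subunit, a channel that repolarises fast and lets neurons fire at high rates. Its level was 107, 77.7, 96.9 and 88.3 CPM in the controls and 53.3, 58.5, 59.1 and 84.2 CPM in the knockouts. Knockout RM alone reached into the control range, and within RM the values were nearly level. The fitted log2 fold change was -0.54 (SE 0.21, unadjusted p = 0.0241, edgeR's quasi-likelihood test). Of its relatives, Kcnc2 was 7.04 ± 2.89 against 6.38 ± 2.78 CPM (SD, n = 4, control first), with overlap, and Kcnc4 had too few counts to be tested.

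Kcnb2 encodes a Kv2 subunit, a slow delayed rectifier. It was 12.7 ± 6.24 CPM in the controls and 9.58 ± 2.70 CPM in the knockouts (SD, n = 4), with overlap. Of the Kv1 subunits, which gate axons and terminals, Kcna2 and Kcna3 were the highest, at 3.08 and 5.33 TPM over all libraries. The 5 tested Kv1 genes had log2 fold changes between -0.26 and 0.37, and Kcna7 and Kcna10 were at 0 in every library. Kcna6 had 1 high library, control RM, at 19.6 CPM against 1.74 to 11.8 CPM in the others.

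**Figure D3:**
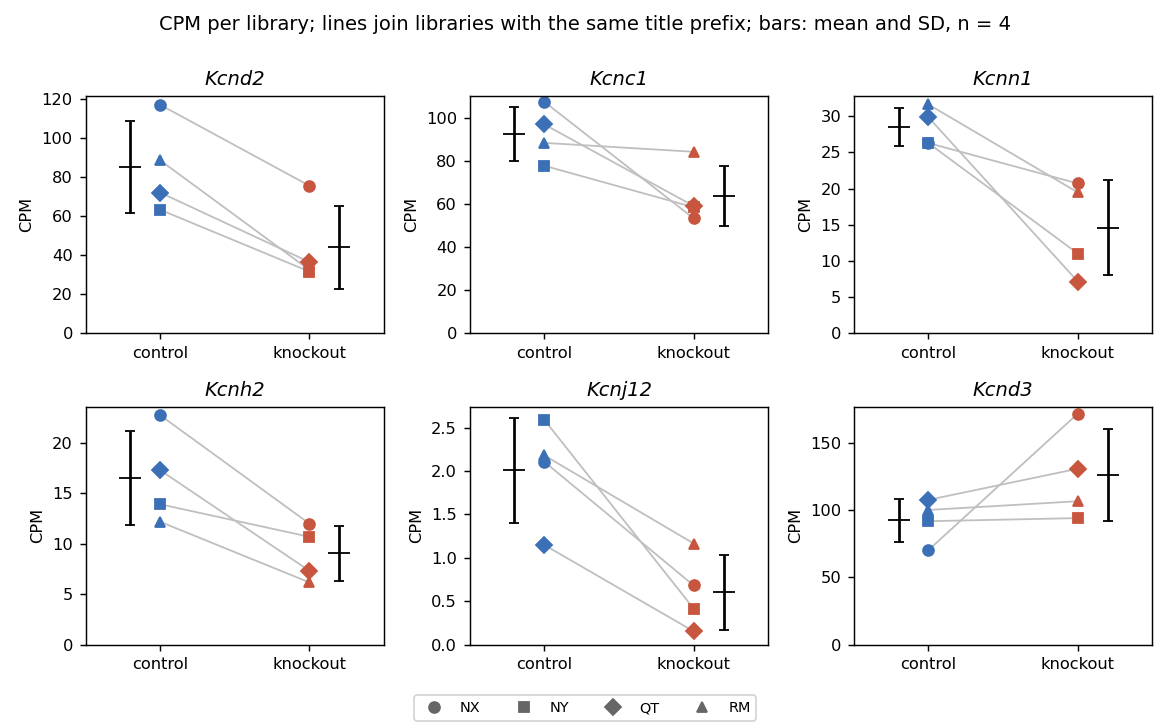
CPM in each library for the 5 members lower in the knockout at an unadjusted p under 0.05 and for Kcnd3 (grey lines join libraries of the same title prefix, and bars are the mean and SD of 4). In CPM, Kcnd2, Kcnc1, Kcnn1, Kcnh2 and Kcnj12 were lower in the knockout in each prefix and Kcnd3 was higher, and these genes were picked for their direction. In TPM, RM turned for Kcnj12 and Kcnd3.

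The EAG, ERG and ELK pore subunits (Kcnh genes) form slow channels that steady the resting potential and damp bursts. Of the 8 genes 7 were tested, 5 were fitted lower and 2 higher, and their summed level was 39.0 ± 9.57 TPM in the controls and 38.4 ± 9.88 TPM in the knockouts (SD, n = 4). Kcnh2, an ERG subunit, was 22.8, 13.9, 17.3 and 12.2 CPM in the controls and 11.98, 10.7, 7.31 and 6.16 CPM in the knockouts. In CPM the lowest control, RM, lay just above the highest knockout, NX, and the ranges did not overlap. In TPM they did, with knockouts NX and NY at 6.79 and 4.75 TPM against 5.96 and 4.54 TPM in controls NY and RM. The fitted log2 fold change was -0.87 (SE 0.34, unadjusted p = 0.0250, edgeR's quasi-likelihood test).

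Kcnh7, another ERG subunit, was 11.4, 17.2, 11.8 and 26.0 CPM in the controls and 17.0, 17.1, 24.4 and 37.4 CPM in the knockouts. In CPM it was higher in the knockout in 3 of 4 prefixes and level in NY. In TPM it was higher in NX, QT and NY, in NY at 14.9 TPM against 8.82 TPM. It was lower in RM, at 14.2 TPM against 18.7 TPM, and the genotypes overlapped. The log2 fold change was 0.53 (SE 0.36, unadjusted p = 0.160, edgeR's quasi-likelihood test), 0.25 without knockout RM and 0.82 without control RM. The ratio of Kcnh2 to Kcnh7 in TPM was 0.898 ± 0.568 in the controls and 0.235 ± 0.108 in the knockouts (SD, n = 4), with control RM, at 0.242, inside the knockout range. That ratio too was chosen after the values were seen and carries no test. Exons of Gca lie on the other strand over part of Kcnh7, and the library kit does not mark strand, so fragments of the overlap cannot be told apart.

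Kcnh2 lies at chr5:24319589-24351604 on the minus strand (GRCm38), and the RefSeq start used here lies within that span. The 150 bases upstream of it, at chr5:24329592-24329741 on the minus strand, are given because Kcnh2 was one of 3 members whose genotypes did not overlap in CPM.
Kcnh2: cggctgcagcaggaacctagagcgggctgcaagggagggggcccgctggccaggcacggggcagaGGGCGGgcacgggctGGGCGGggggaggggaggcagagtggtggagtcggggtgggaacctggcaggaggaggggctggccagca
They held 2 GC boxes and 8 CG pairs, at 75.3% G and C. Kcnh4 and Kcnh8, both ELK subunits, stood at 7.78 and 6.00 TPM over all libraries, above Kcnh1, Kcnh3 and Kcnh5. Kcnh4 was 17.2 ± 6.48 CPM in the controls and 13.4 ± 2.44 CPM in the knockouts and Kcnh8 was 14.5 ± 3.76 and 13.1 ± 4.99 CPM (SD, n = 4), overlapping in both.

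Of the 8 pore subunits gated by calcium or sodium, 7 were tested, with 5 fitted higher and 2 lower. Kcnn1, Kcnn2 and Kcnn3 encode the small-conductance calcium-activated subunits, which help to set the pause after a spike. Kcnn1 was 26.3, 26.3, 29.8 and 31.6 CPM in control NX, NY, QT and RM, and 20.7, 11.01, 7.15 and 19.5 CPM in the knockouts. In CPM the controls lay close together, every knockout lay under them, and the knockouts spread widely. In TPM the ranges overlapped, with knockout NX at 12.29 TPM against 11.78 TPM in control NY and 12.28 TPM in control RM. The fitted log2 fold change was -0.96 (SE 0.33, unadjusted p = 0.0129, edgeR's quasi-likelihood test).

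Kcnn3 was 5.70, 16.1, 11.4 and 17.6 CPM in the controls and 13.3, 8.61, 27.9 and 38.3 CPM in the knockouts. Its genotypes overlapped, with NY lower in the knockout and the other prefixes higher (log2 fold change 0.79, SE 0.48, unadjusted p = 0.123, edgeR's quasi-likelihood test). Kcnn2, the most abundant of the family at 15.8 TPM over all libraries, was 19.4 ± 8.66 CPM in the controls and 21.7 ± 6.22 CPM in the knockouts (SD, n = 4). The ratio of Kcnn1 to Kcnn3 in TPM, chosen after the values were seen and given with no test, was 4.78 ± 2.12 in the controls and 1.69 ± 1.21 in the knockouts (SD, n = 4). Knockout QT had the lowest ratio at 0.448, and the knockout NX ratio, 3.04, lay just under the lowest control, NY, at 3.14.

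Kcnn1 lies at chr8:70842049-70863258 on the minus strand (GRCm38). It has a pair of RefSeq starts, and the 150 bases upstream of each are shown because its genotypes did not overlap in CPM. The first, at chr8:70863259-70863408, lies outside the gene, and the second, at chr8:70857009-70857158, lies within it.
Kcnn1 first start: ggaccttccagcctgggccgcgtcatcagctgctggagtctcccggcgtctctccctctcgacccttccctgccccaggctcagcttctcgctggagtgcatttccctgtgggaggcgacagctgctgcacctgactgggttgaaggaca
Kcnn1 second start: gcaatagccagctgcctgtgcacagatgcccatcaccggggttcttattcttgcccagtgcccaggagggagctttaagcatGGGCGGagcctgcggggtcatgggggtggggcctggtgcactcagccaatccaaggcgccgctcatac
The first window held 0 GC boxes and the second held 1. Exons of A230052G05Rik lie on the other strand over part of Kcnn1. The expected count of Kcnn1 was whole in 1 of 8 libraries (to within 1e-06), and RSEM shared fragments between Kcnn1 and other places in the others. The same holds for Kcnc1, whole in 0 libraries, and for Kcnj12, whole in 2, so their counts depend on how shared fragments were divided. Other members shared fragments too, among them Kcnn2 and Kcnip3, whole in 0 libraries, Kcnmb4, whole in 2, and Kcnj9, whole in 5. The expected counts of Kcnd2, Kcnd3, Kcnh2 and Kcnh7 were whole in 8 of 8.

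Kcnt1, a sodium-activated channel subunit, was 36.3, 24.1, 23.0 and 44.0 CPM in the controls and 26.4, 17.2, 23.4 and 17.1 CPM in the knockouts. In 3 of 4 prefixes the knockout was the lower library, QT was about level, and the genotypes overlapped (log2 fold change -0.59, SE 0.29, unadjusted p = 0.0589, edgeR's quasi-likelihood test). Kcnma1, the pore of the large-conductance calcium-activated channel, was 22.4 ± 10.4 CPM in the controls and 24.0 ± 4.64 CPM in the knockouts (SD, n = 4).

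**Figure D4:**
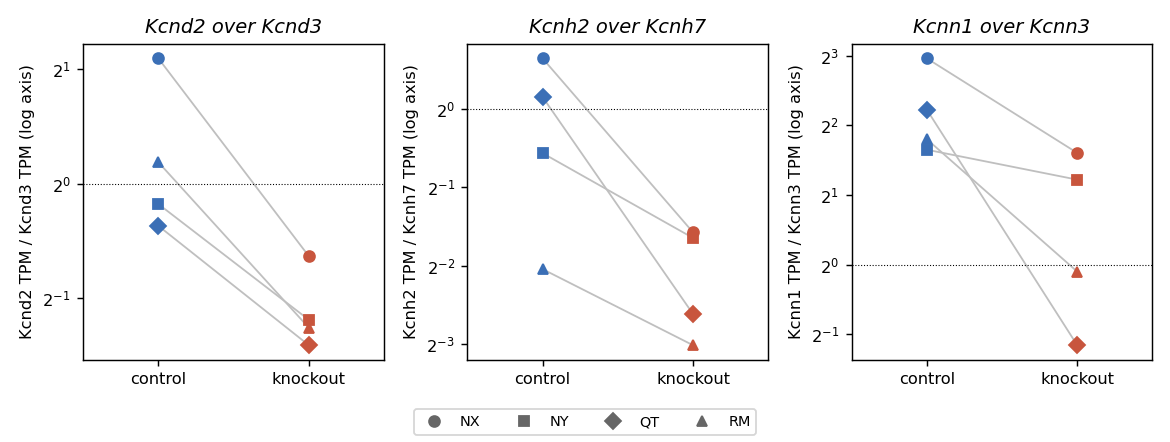
TPM ratios within 3 subfamilies in each library on log axes (dotted line at a ratio of 1, grey lines join libraries of the same title prefix). Each ratio was lower in the knockout in every prefix, with overlap between genotypes for Kcnh2 over Kcnh7 only, and the pairs were chosen after the values were seen.

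The KCNQ subunits form the M-current channel, a slow brake on firing that is shut by muscarinic and other receptors. Of 5 genes 3 were tested, 1 fitted higher and 2 lower, and Kcnq1 was at 0 throughout. Kcnq3 was 10.04, 15.7, 13.6 and 14.9 CPM in the controls and 9.46, 9.28, 16.6 and 17.97 CPM in the knockouts. The knockout was the lower library in NX and NY and the higher in QT and RM (log2 fold change -0.03, SE 0.33, unadjusted p = 0.927, edgeR's quasi-likelihood test). Kcnq5 was low, 3.59 ± 2.28 CPM in the controls and 4.90 ± 3.62 CPM in the knockouts (SD, n = 4).

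Inward rectifier (Kir, Kcnj) subunits hold the membrane near rest, and some of them answer to G protein-coupled receptors. Of 15 genes 10 were tested, with 5 fitted higher and 5 lower. The most abundant was Kcnj3, a subunit of the G protein-gated channel, at 64.9, 29.2, 54.0 and 46.2 CPM in the controls and 71.3, 23.3, 39.7 and 25.1 CPM in the knockouts. The NX library was the highest and the NY library the lowest of each genotype, and the genotypes overlapped (log2 fold change -0.28, SE 0.36, unadjusted p = 0.452, edgeR's quasi-likelihood test).

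Kcnj9, which joins Kcnj3 in G protein-gated channels, was low. It was 1.92, 2.07, 2.83 and 3.63 CPM in the controls and 1.43, 0.911, 0.761 and 1.83 CPM in the knockouts, so that the ranges just missed each other. The fitted log2 fold change was -1.07 (SE 0.61, unadjusted p = 0.104, edgeR's quasi-likelihood test). Exons of Gm36937 lie on the other strand over part of Kcnj9. Kcnj6, also of this family, stood at 1.37 ± 1.31 and 2.00 ± 1.09 CPM (SD, n = 4, control first). Kcnj5, the remaining partner, had too few counts for the test: 0, 1, 0 and 0 counts in the controls and 3, 14, 8 and 4 counts in the knockouts. In CPM its ranges did not overlap, and every knockout lay above every control, with the controls under the detection floor of 3 counts. Kcnj5 is named after its values were seen.

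Kcnj12, a strong inward rectifier, had the lowest fold change of all members and few counts behind it: 34, 35, 15 and 12 counts in the controls and 10, 5, 1 and 7 counts in the knockouts. In CPM these were 2.11, 2.59, 1.15 and 2.18, and 0.681, 0.414, 0.152 and 1.16. Control QT and knockout RM met, and the others stood apart. In TPM the knockout was the higher library in RM, at 1.10 TPM against 0.78 TPM. The fitted log2 fold change was -1.73 (SE 0.73, unadjusted p = 0.0356, edgeR's quasi-likelihood test), and it was -0.41 on log2 TPM plus 1.

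Kcnj13 is encoded within Gigyf2, whose exons overlap it on the other strand. It was 4.87, 8.41, 3.11 and 17.5 TPM in the controls and 4.44, 6.64, 16.51 and 15.6 TPM in the knockouts, with no order by genotype. Kcnj8, a subunit of pericytes and smooth muscle in the brain, had 33 counts in control NY, 11 in knockout RM, 5 in control RM, 3 in knockout NY and 0 in both NX and both QT libraries. The 13 endothelial, mural and meningeal markers summed to 36.5 TPM in control NY and to 1.72 to 10.9 TPM in the other 7 libraries. Kcnj10, the main glial inward rectifier, was 0.13, 3.5, 1.27 and 1.3 TPM in the controls and 0.68, 2.82, 1.23 and 2.47 TPM in the knockouts. The 9 astrocyte and oligodendrocyte lineage markers were likewise lowest in NX, at 1.11 and 5.87 TPM, against 16.52 to 54.2 TPM in the others. The part of these cells in the values was not tested.

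Two-pore-domain channels (Kcnk) leak potassium at rest. Of 14 genes only 4 were tested, and these 4 had log2 fold changes from -0.31 to 0.31. Kcnk10 was 32.4, 32.9, 28.0 and 46.2 CPM in the controls and 41.5, 36.0, 41.1 and 53.7 CPM in the knockouts. In CPM the knockout was the higher in each prefix, and in TPM it was the lower in RM, at 23.3 TPM against 26.1 TPM, with overlap (log2 fold change 0.31, SE 0.23, unadjusted p = 0.213, edgeR's quasi-likelihood test). Kcnk2, of the same mechanically gated branch, was 24.0 ± 4.62 CPM in the controls and 19.3 ± 6.69 CPM in the knockouts (SD, n = 4). Kcnk1 and Kcnk3 stood at 4.31 and 0.465 TPM over all libraries. The other members of the family, among them Kcnk9, had few or no counts.

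The 10 electrically silent subunits form no channel alone and modify Kv2 channels. Of the 5 tested, 3 were fitted higher and 2 lower, and none stood above 3.07 TPM (Kcnv1) over all libraries. Kcnv1 was 4.52 ± 2.49 CPM in the controls and 6.64 ± 2.84 CPM in the knockouts and Kcnf1 was 5.61 ± 2.61 and 3.68 ± 5.26 CPM (SD, n = 4). For Kcnf1 the knockout spread came from NX, at 11.5 CPM against 0.457 to 2.00 CPM in the other knockouts. Kcns2 had the highest fold change of all members, 1.06 (SE 0.78, unadjusted p = 0.197, edgeR's quasi-likelihood test), at 0.496, 1.78, 1.07 and 2.18 CPM in the controls and 3.54, 3.48, 0.304 and 3.99 CPM in the knockouts. Knockouts NX, NY and RM were above every control. Knockout QT was under every control, and its 2 counts were under the detection floor of 3.

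Of 15 auxiliary subunits 9 were tested, with 3 fitted higher and 6 lower. Kcnmb4, the neuronal beta subunit of the large-conductance channel, was 48.5, 12.5, 21.0 and 60.3 TPM in the controls and 18.8, 26.6, 28.4 and 17.1 TPM in the knockouts. Controls NX and RM were high and the remaining 6 libraries lay together, so the direction differed by prefix. Kcnip3, which binds Kv4 subunits, was 17.8 ± 9.67 CPM in the controls and 17.1 ± 10.3 CPM in the knockouts (SD, n = 4). The other Kv4-binding members were Kcnip1 at 9.01 ± 3.45 and 9.07 ± 5.52 CPM, Kcnip2 at 1.97 ± 0.831 and 1.06 ± 1.06 CPM, and Kcnip4 at 1.34 ± 0.848 and 2.12 ± 1.32 CPM (SD, n = 4, control first).

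Kcnab2, a beta subunit of Kv1 channels, was 9.24, 5.55, 4.44 and 6.18 CPM in the controls and 5.79, 2.07, 2.13 and 4.49 CPM in the knockouts. It was lower in the knockout in each prefix in CPM and TPM, with overlap (log2 fold change -0.81, SE 0.50, unadjusted p = 0.131, edgeR's quasi-likelihood test). Of the Kcne genes, Kcne1 and Kcne3 were at 0 and the remaining pair had counts in at most 3 libraries each.

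**Figure D5:**
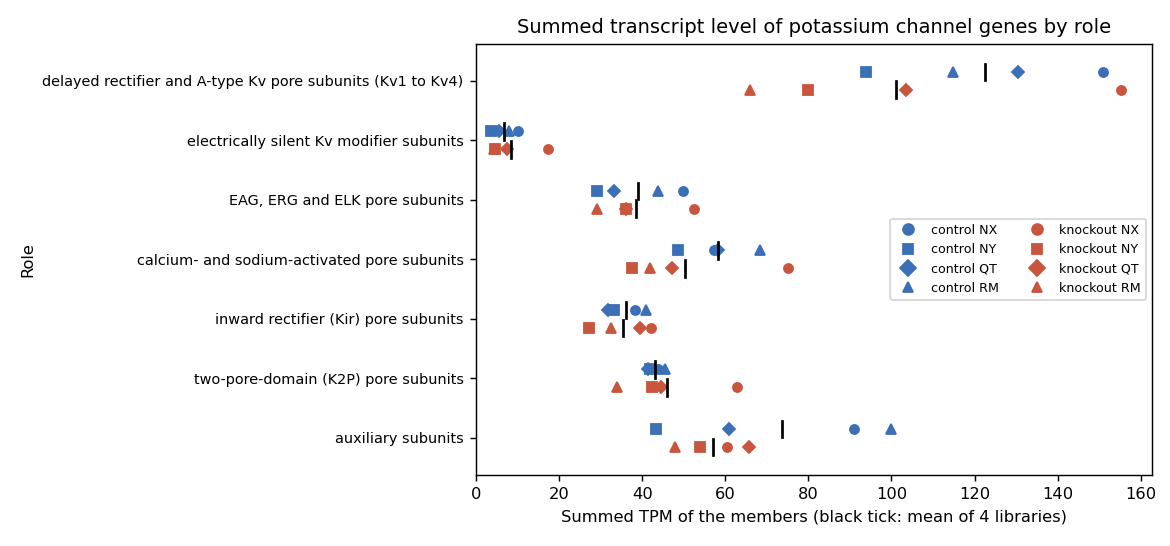
Summed TPM of the members of 7 of the 8 roles in each library (blue control, red knockout, symbols for the title prefix, black tick for the mean of 4). The Kv1 to Kv4 pore subunits had the highest sums, 93.8 to 151 TPM in the controls and 65.9 to 155 TPM in the knockouts, and the genotypes overlapped in every role shown.

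The list of 25 partners and related channels holds genes that bind, anchor or regulate potassium channels and the Hcn channels. Of these 21 were tested, with 5 fitted higher and 16 lower (median log2 fold change -0.19), and 0 had an unadjusted p under 0.05 in edgeR. Sgk1, a kinase that acts on channel trafficking, was 66.7, 24.1, 21.8 and 18.0 CPM in the controls and 33.0, 15.98, 7.46 and 8.98 CPM in the knockouts. It was lower in the knockout in each prefix, and knockout NX lay above 3 controls (log2 fold change -0.99, SE 0.51, unadjusted p = 0.0776, edgeR's quasi-likelihood test). Its fold change was -0.37 without control NX, -1.59 without knockout NX and -0.13 without control NX and knockout QT. Dlg2, a scaffold that anchors Kv1 and Kir channels, was 148 ± 50.4 CPM in the controls and 190 ± 53.8 CPM in the knockouts. Hcn4, a channel opened by hyperpolarisation, was 18.7 ± 4.57 and 13.9 ± 5.28 CPM (SD, n = 4).

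Markers of other cells also differed between the libraries. Of 12 cycling progenitor markers, all tested, 10 were fitted higher in the knockout (median log2 fold change 0.95), 0 were called and 1 had an unadjusted p under 0.05. Their summed level was 65.9, 257, 338 and 166 TPM in control NX, NY, QT and RM and 71.0, 556, 589 and 318 TPM in the knockouts. The 12 tested of 14 microglia markers were all fitted lower (median log2 fold change -1.09), with sums of 15.3 to 226 TPM in the controls and 36.6 to 128 TPM in the knockouts. In NX alone the microglia sum was higher in the knockout, at 36.6 TPM against 15.3 TPM. Pallial glutamatergic markers summed to 27.6 to 273 TPM in the controls and 136 to 386 TPM in the knockouts, and in NX they stood at 27.6 TPM in the control and 186 TPM in the knockout. Those of interneurons from the medial and caudal ganglionic eminences summed to 186 to 442 and 149 to 355 TPM. Lum and Vip were at 0 in every library. The part of these cells in the potassium channel values was not tested.

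Several members lie next to each other in the genome (GRCm38), which the rule did not use. Kcna5, Kcna1 and Kcna6 lie in a row on the minus strand of chromosome 6 between 126532551 and 126740674, and in that row Kcna5 had 5 counts over all libraries while Kcna1 and Kcna6 stood at 1.46 and 2.63 TPM. On chromosome 3, Kcna3 and Kcna2 were detected in every library and their neighbour Kcna10, at 107183056-107195721, in none. Kcnj9 and Kcnj10 are neighbours on chromosome 1, and Kcnj6 and Kcnj15 on chromosome 16. Some neighbours were fitted in opposite directions and some in the same. Kcnj9 had a log2 fold change of -1.07 and Kcnj10 one of 0.36, and the latter spanned both signs over the prefixes. Kcna1 and Kcna6 also differed in sign (0.37 and -0.24). Kcnj6 and Kcnj15 were both fitted higher (0.56 and 0.91), and Kcna3 and Kcna2 both lower (-0.03 and -0.26).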

How the data were processed

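RNA sequencing of 8 pools of sorted cells was analysed. Reads were handled by the authors with Trimmomatic 0.33, RSEM 1.2.22 and Bowtie2 on build mm10, per the submitters' processing notes. For Bowtie2's version and the gene annotation's release, the sources used here give nothing. Per the file headers, the deposited values are RSEM expected counts, which need not be whole, and TPM, which carries no depth. The 16 columns of the deposited matrices differed from the sample files by 0. A row naming no gene (at most 1.8e-05% of a library) was left out.

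Expected counts were rounded and tested in edgeR 4.0.16 (R 4.3.3): filterByExpr defaults (14157 genes), TMM, glmQLFit and glmQLFTest with genotype as the single term, Benjamini-Hochberg adjustment over all tested genes, called at adjusted p under 0.05. CPM includes TMM scaling. SEs were derived from the quasi-likelihood F. DESeq2 1.42.0, limma 3.58.1 (voom, and limma-trend on log2 TPM plus 1 or 0.1), filters, composition factors, the prefix as a block and left-out libraries were alternatives. The fit was tested on simulated data.

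The members and lists were chosen with earlier results of these data known. Named are, for each role, the 2 tested members with the highest TPM and the 2 with the smallest p. Members with unadjusted p under 0.05 and no overlap in CPM, 3 partners with the smallest p, and Tshz1 were also named. Other members appear for completeness of their family. A few members are not reported here. Positions are from GENCODE (GRCm38, the same assembly as mm10; 92 of 92 members matched), and promoter sequences from RefSeq (GRCm38.p6; 67 of 92).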

Additional observations from a re-analysis of the deposited data

Results flagged for a closer look

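Of 58 groups of 4 libraries checked (29 named genes in each genotype), 3 held a library far from the other 3, where chance gives about 1 in 20. Kcnd2 stood at 75.6 CPM in knockout NX, against 31.6 to 36.5 CPM in the other knockouts. Kcnmb4 stood at 9.40 CPM in knockout NX, against 20.3 to 21.5 CPM. In TPM that library did not stand apart, at 18.8 TPM against 17.1 TPM in knockout RM. Kcns2 stood at 0.304 CPM in knockout QT (2 counts, under the detection floor of 3), against 3.48 to 3.99 CPM.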

How the results depend on the processing

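Over 23 alternatives, 28 named members and partners kept the direction of their log2 fold change in 623 of 644 values, no member was called in any of them, and 20 of the 28 genes never turned. Reversals outside left-out single libraries were 0.0846 (Kcnf1) and 0.00305 (Kcnh4) without control NX and knockout QT, 0.0435 (replicate block), 0.0751 (limma-voom) and 0.293 (without both QT libraries) for Kcnip3, 0.0184 for Kcnmb4 without both RM libraries, 0.191 for Kcnq3 without both NY libraries and -0.163 for Kcnq5 without both NX libraries. Leaving out single libraries gave -0.546 to 0.183 for Kcnip3, -0.0832 to 1.18 for Kcnj13, -0.776 to 0.102 for Kcnmb4, -0.0299 to 0.487 for Kcnn2 and -0.199 to 0.112 for Kcnq3. Over all genes, calls moved from 5 to 9 with no composition factors, 19 with no low-count filter, 39 with DESeq2, 2 with limma-voom or robust quasi-likelihood, 10 with log2 TPM plus 1, 11 at adjusted p under 0.10, 3 without both NX libraries, and 0 without both NY, both QT or both RM libraries or without control NX and knockout QT; single libraries left out gave 0 to 5. The 5 members lower at unadjusted p under 0.05 became 2 with log2 TPM plus 1 or plus 0.1, 3 without both NX or both QT libraries, 2 without both NY libraries and 1 without control NX and knockout QT, and ran from 2 to 6 with single libraries left out. The 0 higher members became 1 with no low-count filter and without both NY libraries, and ran from 0 to 2 with single libraries left out. The members' median log2 fold change ran from -0.298 to 0.0566 with single libraries left out. An unadjusted p under 0.05 held for Kcnd2 and Kcnn1 in 21 of the 23 alternatives, for Kcnh2 in 14, Kcnc1 in 12 and Kcnj12 in 10. Taking the prefix as a replicate block, 28 genes and 0 members were called, and 7 members were lower at unadjusted p under 0.05. The share of all genes at that threshold was counted for the main fit only. The counts of members in the alternatives therefore have no background beside them. In the blocked fit Kcnd2 had a log2 fold change of -1.01 (adjusted p = 0.0744, edgeR's quasi-likelihood test). Deviations from the genotype means correlated between libraries of a prefix at 0.385 (NX), 0.303 (NY), 0.0658 (QT) and 0.45 (RM). Knockouts NX, NY and RM each correlated best with the control of their own prefix. For knockout QT that value was close to its highest, with control RM (0.072). The prefixes were not taken as pairs in the main fit because the labels do not say what they mark. Tshz1 stayed lower throughout (-2.55 to -2.11), with adjusted p from 2.36e-09 to 0.618. At 3 counts of 0.186 to 0.545 CPM, differences of members with few counts, such as Kcnj12 and Kcnj9, rest on small numbers.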
